A study of Rattus norvegicus with 4 samples.

Results

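A set of 8 genes of trophic signalling between glia and neurons were followed across 3 RNAs of an astrocyte culture system: the neurotrophin Bdnf, Gdnf, Cntf, Lif, Fgf2, Igf1, Igf2 and the BDNF receptor Ntrk2 (TrkB). They were found by gene symbol or RefSeq transcript on Agilent whole rat genome arrays, where 15 of 41012 probes belonged to them. At least 1 probe of each of the 8 genes could be tested, and 13 of the 15 probes entered the tests. CC was RNA of co-cultures of cortical astrocytes, from Wistar rat pups of postnatal day 1, with mouse hippocampal neurons of embryonic day 18. CC-CJ was RNA of such co-cultures after cold jet, in which a stream of ice-cold buffer detaches the neurons and leaves the astrocyte layer. AA-CJ was RNA of the same kind of astrocytes grown alone and given cold jet. The Cy3 channel of the 4 arrays carried CC-CJ throughout, and the Cy5 channel carried AA-CJ on one pair of arrays and CC on the other pair, without dye swap. A dye effect of a probe that is the same on all arrays cancels in CC versus AA-CJ. In CC-CJ versus AA-CJ and in CC-CJ versus CC, RNA and dye cannot be told apart. With 2 biological replicates per condition, the 4 CC-CJ labellings are not 4 independent cultures. The culture day of these samples is not given in the sources used here.

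Neurotrophic factors are secreted proteins that keep neurons alive and shape their processes and synapses. Neurotrophins act through Trk receptor kinases and p75; GDNF through GFRα subunits with Ret; CNTF and LIF through receptors that share gp130; FGFs and IGFs through receptor tyrosine kinases of their own. Astrocytes are a classical source of several of these factors, and they carry TrkB largely in truncated forms that lack the kinase domain. Neurons make Bdnf and full-length TrkB, so the same transcripts can come from either cell type in a co-culture. The neurons were of mouse and the probes of rat sequence, and how well each probe reads the mouse transcript was not tested. In RNA of a whole culture, fewer cells of a type and less RNA per cell cannot be told apart.

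Bdnf is transcribed from several alternative starts, of which 6 had a window in the RefSeq table (GRCr8) covering 250 bases before to 50 bases after each start. One of these windows is shown because Bdnf is the textbook case of a growth factor gene whose transcription follows neuronal activity through a cAMP response element. Capitals mark TGACG, the half-site of that element, here on the opposite strand and beginning 35 bases before the start.

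Bdnf, GRCr8 chr3:116637608-116637907, plus strand: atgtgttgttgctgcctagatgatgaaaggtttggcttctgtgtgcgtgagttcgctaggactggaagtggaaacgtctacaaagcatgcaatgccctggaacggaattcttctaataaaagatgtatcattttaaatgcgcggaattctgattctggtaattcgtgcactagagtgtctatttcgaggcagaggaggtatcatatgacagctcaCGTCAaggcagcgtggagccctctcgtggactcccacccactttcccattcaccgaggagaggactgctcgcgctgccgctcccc

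Searched on both strands, TGACG was present in 3 of the 12 windows of the 6 genes with an entry (Bdnf, Gdnf, Cntf, Fgf2, Igf1 and Igf2) and in 21.2% of 33469 windows of all genes. The full element TGACGTCA was in 0 of these 12 windows and in 1.83% of all windows. No window was listed for Lif and Ntrk2. The array probes do not separate transcripts by their start, so the letters are a description of the gene and not of the measurements.

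The arrays were of similar quality. A share of 50.1% to 62.6% of probes was well above background per channel, 121 to 179 spots per array were outliers, and 0 to 4 spots were saturated, none of them on a probe of these genes. All 12 astrocyte markers were above background in every RNA. The summed linear level of the 16 neuron markers was 21912 to 23045 in CC, 8733 to 9169 in CC-CJ and 9147 to 9723 in AA-CJ. The summed level of the 11 microglia markers on the array was 11016 to 11334 in CC, 9390 to 9656 in CC-CJ and 8589 to 9222 in AA-CJ. That of the 11 meningeal, fibroblast and mural markers was 161791 to 163764 in CC, 129687 to 146124 in CC-CJ and 132090 to 147841 in AA-CJ. Of the 11 microglia markers, 3 were not above background on any array in CC-CJ (Aif1, Itgam and Cx3cr1), 5 in AA-CJ (also Trem2 and C1qa) and 3 in CC (Itgam, Cx3cr1 and P2ry12). Of the 16 neuron markers, 2 were not above background on any array in CC-CJ (Snap25 and Slc17a7) and 6 in AA-CJ (also Dcx, Rbfox3, Elavl4 and Gad1), and in CC 2 (Gad1 and Slc17a7). CC RNA thus read higher than both other RNAs for neuron, microglia and meningeal markers, and the part of this in any difference below was not tested.

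Of the 8 genes, 1 passed the test in 1 comparison: Ntrk2 exceeded AA-CJ in CC-CJ. A gene is called where limma's Benjamini-Hochberg adjusted p over all 21315 genes was under 0.05, which held for 3.09% of genes in CC-CJ versus AA-CJ. There, 1 of the 8 had an unadjusted p under 0.05, against 22.6% of all genes. In CC-CJ versus CC, 0 of the 8 genes were called by limma against 2.34% of all genes, and 4 of the 8 had an unadjusted p under 0.05 against 16.9% of all genes. In CC versus AA-CJ, 0 of the 8 were called by limma against 2.65%, and 3 had an unadjusted p under 0.05 against 17.8%. The median difference of the 8 genes was 0.13, -0.11 and 0.21 on the log2 scale in these 3 comparisons, where the median of all genes was -0.016, -0.024 and 0.0014. CC versus AA-CJ is the difference of the 2 measured contrasts and shares their arrays, so the 3 comparisons are not independent. The first part of the study's selection, a log ratio beyond the mean by over 2 SD on both arrays, was applied per probe, and its further conditions, such as like readings from several probes of an mRNA, were not applied. In CC-CJ versus AA-CJ 1 probe passed the 2 SD limit, Ntrk2 probe A_44_P161121, where 1.64% of all probes did, and the other Ntrk2 probe did not. The limit passed 2 genes in CC-CJ versus CC, Cntf higher and Igf2 lower in CC-CJ, against 1.39% of all probes.

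**Figure D1:**
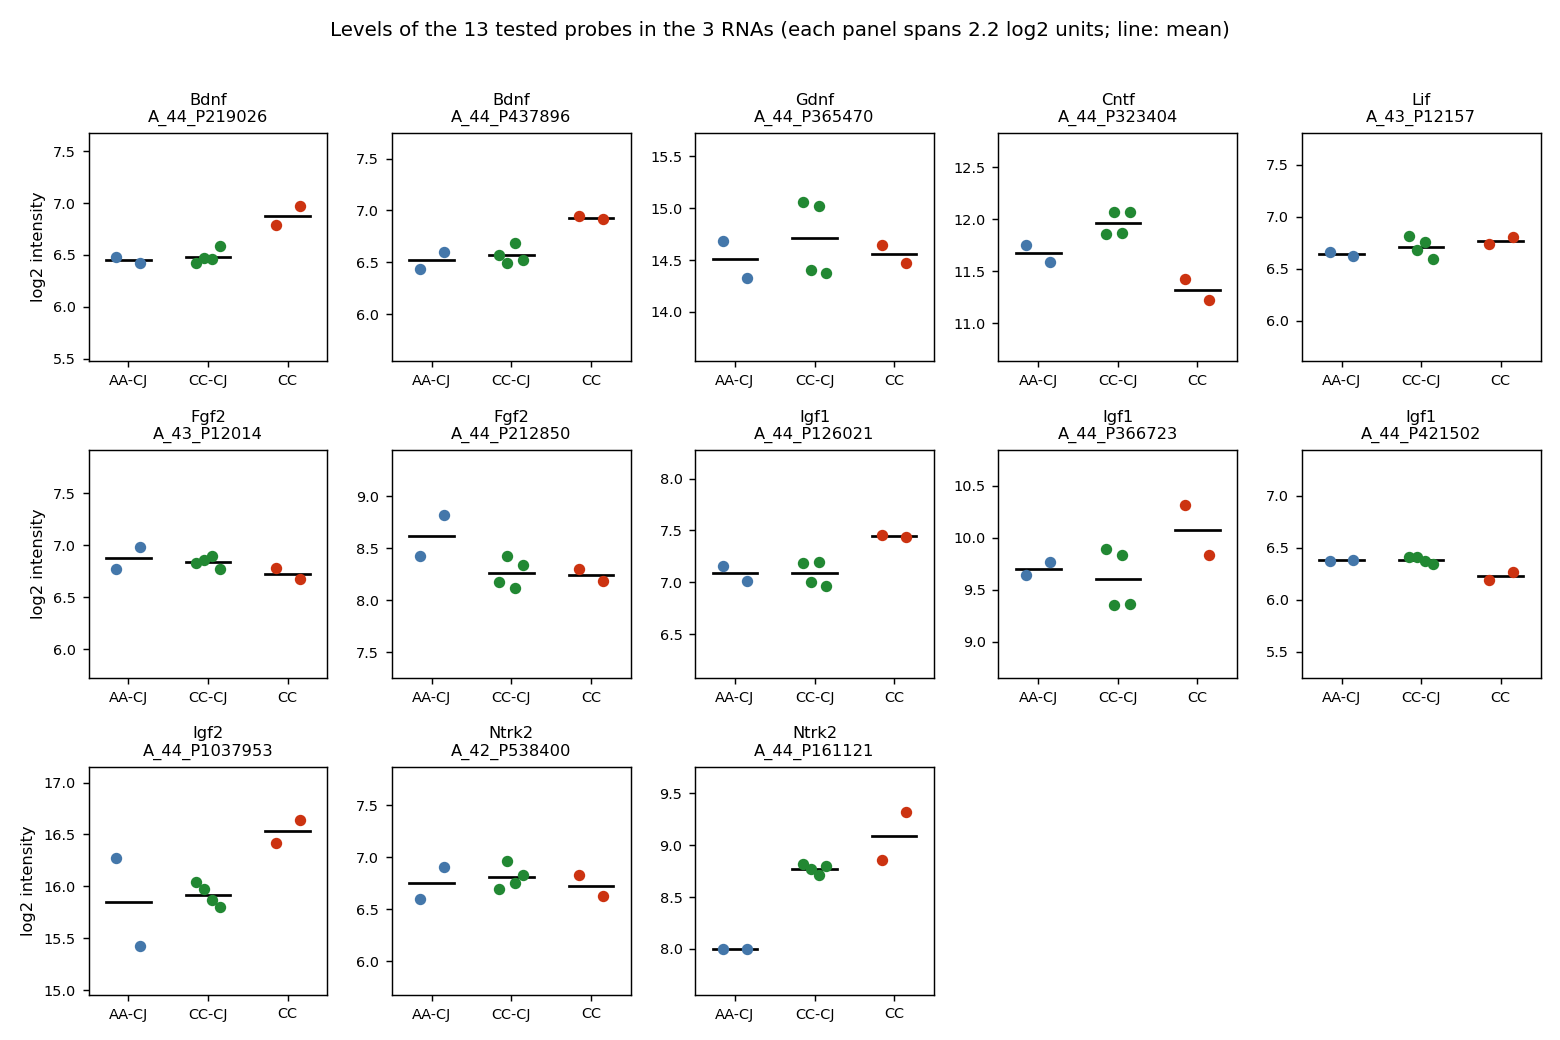
Level of each of the 13 tested probes (log2 intensity, y axis) in AA-CJ, CC-CJ and CC (x axis); each point is 1 array channel and the line the mean of the RNA. Panels span the same height on the log2 axis at different levels. The 2 AA-CJ points of the Ntrk2 probe A_44_P161121 lie at 8.0, below all CC-CJ and CC points, whereas the other Ntrk2 probe shows overlapping RNAs.

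Bdnf, the main ligand of TrkB, was read by 2 probes close to background. Probe A_44_P219026 (rn4 chr3_random:976345-976404, plus strand) stood at 6.48 and 6.42 in AA-CJ, at 6.42, 6.48, 6.46 and 6.58 in CC-CJ and at 6.79 and 6.97 in CC, on the log2 intensity scale. Probe A_44_P437896 (rn4 chr3_random:979381-979440, plus strand) stood at 6.43 and 6.60 in AA-CJ, at 6.57, 6.50, 6.68 and 6.52 in CC-CJ and at 6.95 and 6.92 in CC. Both CC channels were above all AA-CJ and CC-CJ channels for both probes, and AA-CJ overlapped CC-CJ. The first probe was well above background on 1 AA-CJ, 0 CC-CJ and 2 CC channels. It thus entered the tests only through CC, a filter that favours a higher reading there. With CC-CJ not above background, its estimate put CC 1.28-fold above CC-CJ, a bound rather than a measured size. The interval for log2 CC-CJ over CC was -0.56 to -0.16 (limma adjusted p = 0.103). Averaged over its probes, Bdnf differed by -0.34 ± 0.08 (SE) between CC-CJ and CC (limma adjusted p = 0.104) and by 0.35 ± 0.12 between CC and AA-CJ (limma adjusted p = 0.190). The CC-CJ versus AA-CJ difference was 0.005, with an interval of -0.19 to 0.20. The average takes in the probe that was not above background in CC-CJ, and its size moved with the background correction: CC-CJ over CC was -1.38 with Feature Extraction's processed signals (limma adjusted p = 0.081) and -0.64 with offset 10 (limma adjusted p = 0.058), and CC over AA-CJ was 1.28 (limma adjusted p = 0.182) and 0.64 (limma adjusted p = 0.146). With median centring CC-CJ over CC passed at -0.47 (limma adjusted p = 0.0049), where the median of all tested probes was itself below zero. Bdnf was thus not called in any comparison as reported, and the summed neuron markers were highest in the same RNA in which it read highest.

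Gdnf, known for its support of dopaminergic and motor neurons, gave unlike readings on its 2 probes. Probe A_44_P365470 (rn4 chr2:57403890-57403949, plus strand) stood at 14.69 and 14.33 in AA-CJ, 15.05, 14.41, 15.02 and 14.38 in CC-CJ, and its CC channels read 14.65 and 14.47. All 3 RNAs overlapped. The CC-CJ values were high on both arrays numbered 1 and low on both arrays numbered 2, so the spread between replicates was larger than any difference between RNAs. Probe A_44_P500961 (rn4 chr2:57423845-57423904, plus strand), which starts 19955 bases further along the gene and was printed in 10 spots, was not well above background in any of the 8 channels. Its levels ran from 6.00 to 6.12. The Gdnf differences below rest on the first probe alone and were 0.22 (interval -0.09 to 0.53), 0.14 (-0.17 to 0.45) and 0.08 (-0.36 to 0.52) in CC-CJ over AA-CJ, CC-CJ over CC and CC over AA-CJ.

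Cntf, a cytokine made by astrocytes and Schwann cells that lacks a signal peptide, read highest in CC-CJ, the only RNA labelled with Cy3. Its probe A_44_P323404 (rn4 chr1:215842670-215842729, minus strand, 10 spots) stood at 11.76 and 11.59 in AA-CJ, at 11.86, 12.07, 11.86 and 12.07 in CC-CJ and at 11.42 and 11.23 in CC. No 2 of the RNAs overlapped: CC was lowest, AA-CJ intermediate and CC-CJ highest on every channel. CC-CJ exceeded CC by 0.44 and 0.85 on the 2 arrays, a difference of 0.65 ± 0.13 (SE) that did not pass (limma adjusted p = 0.071). CC-CJ exceeded AA-CJ by 0.10 and 0.48 (0.29, limma adjusted p = 0.256), and CC over AA-CJ was -0.35 (limma adjusted p = 0.385). The Cntf call in CC-CJ versus CC depended on single arrays: the limma adjusted p was 0.034 without either CC-CJ versus AA-CJ array, 0.035 without CC-CJ versus CC replicate 1 and 0.594 without CC-CJ versus CC replicate 2. It was 0.044 with the replicate number as a block. Of the 16 alternatives that kept the direction, 8 passed. Among these, the fits without either CC-CJ versus AA-CJ array and that of the 2 CC-CJ versus CC arrays alone are the same fit. The direction in CC-CJ over CC held with loess and turned to -0.58 with median centring, which is 0.047 relative to the median of all tested probes.

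Lif, a cytokine that uses the same gp130 subunit as CNTF, was dim on its probe A_43_P12157 (rn4 chr14:84890560-84890619, plus strand). Its levels were 6.66 and 6.62 in AA-CJ, 6.59 to 6.82 in CC-CJ and 6.74 and 6.81 in CC. CC-CJ overlapped both other RNAs. The differences were 0.11, -0.096 and 0.20 in the 3 comparisons, with limma adjusted p of 0.539, 0.639 and 0.467.

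Fgf2, a mitogen for glia and neural precursors, was read by 2 probes whose starts lie 655 bases apart. Probe A_44_P212850 (rn4 chr2:123946945-123947004, plus strand, 10 spots) stood at 8.43 and 8.82 in AA-CJ, at 8.17, 8.43, 8.12 and 8.34 in CC-CJ and at 8.30 and 8.19 in CC. AA-CJ was at or above every other channel on this probe, and CC overlapped CC-CJ. Its CC-CJ over AA-CJ difference was -0.32 ± 0.11 (SE), with a limma adjusted p of 0.138 over all probes. Probe A_43_P12014 (rn4 chr2:123947600-123947659, plus strand) gave -0.04 ± 0.09 in the same comparison, with all 3 RNAs between 6.67 and 6.99. Over both probes Fgf2 differed by -0.18 (limma adjusted p = 0.291) from AA-CJ and by 0.05 (limma adjusted p = 0.83) from CC.

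Igf1, which promotes survival, myelination and growth and which microglia also secrete, had 4 probes with unlike readings. Probe A_44_P366723 (rn4 chr7:24604715-24604774, plus strand) stood at 9.64 and 9.76 in AA-CJ, at 9.89, 9.35, 9.83 and 9.36 in CC-CJ and at 10.32 and 9.83 in CC. CC overlapped CC-CJ here but lay above AA-CJ. Probe A_44_P126021 (rn4 chr7:24531970-24537063, plus strand) stood at 7.16 and 7.01 in AA-CJ, at 6.96 to 7.20 in CC-CJ and at 7.46 and 7.44 in CC. On this probe CC was above all other channels. Both probes gave like differences in CC over AA-CJ, of 0.39 and 0.37, and in CC-CJ over CC, of -0.48 and -0.37. Their limma adjusted p over all probes were 0.391 and 0.207 in the first of these comparisons and 0.185 and 0.113 in the second. Probe A_44_P421502 (rn4 chr7:24533750-24533809, plus strand, 10 spots) was dim at 6.19 to 6.42 and gave -0.10 in CC over AA-CJ. Probe A_44_P421499 (rn4 chr7:24533810-24537048, plus strand) was above background on 2 of the 4 CC-CJ channels and on none of the AA-CJ and CC channels, and was not tested. Averaged over the 3 tested probes, Igf1 differed by -0.24 in CC-CJ over CC (limma adjusted p = 0.265) and by -0.016 from AA-CJ (limma adjusted p = 0.944). The microglia and neuron markers were higher in CC as well, and their part in the Igf1 values was not tested.

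Igf2, a growth factor of fetal tissue and of the meninges, was bright on probe A_44_P1037953 (rn4 chr1:202906641-202906700, minus strand). It stood at 16.27 and 15.43 in AA-CJ, at 16.04, 15.97, 15.86 and 15.80 in CC-CJ and at 16.42 and 16.64 in CC. CC was above all other channels, and the 2 AA-CJ channels, on either side of all CC-CJ channels, were the farthest apart of any RNA for any of these probes. CC-CJ was below CC by -0.56 and -0.84 on the 2 arrays, -0.70 ± 0.18 (SE), with a limma adjusted p of 0.123. CC exceeded AA-CJ by 0.86 ± 0.25, with a limma adjusted p of 0.152, and CC-CJ over AA-CJ was -0.23 on one array and 0.54 on the other. Without CC-CJ versus AA-CJ replicate 1, CC over AA-CJ was 1.24, whereas without replicate 2 it was 0.47. Each of these fits holds 1 AA-CJ array, so the spread between the AA-CJ replicates does not enter them. The range for CC over AA-CJ given below takes in these fits. CC-CJ over CC stayed at -0.70 and had a limma adjusted p of 0.015 without either of these arrays, whose spread enters the test. Over all alternatives run, the limma adjusted p ranged from 0.020 to 0.395 in CC over AA-CJ and from 9.2e-05 to 0.711 in CC-CJ over CC. The summed level of the meningeal, fibroblast and mural markers was likewise highest in CC. Of these markers, 2 of 8 tested were called lower in CC-CJ than in CC, where 2.34% of all genes were called. Their part in the Igf2 values was not tested.

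Ntrk2, which encodes TrkB, the high-affinity receptor of BDNF, was the gene that passed. Probe A_44_P161121 (rn4 chr17:11754284-11754343, minus strand) stood at 8.0 and 8.0 in AA-CJ, at 8.82, 8.77, 8.71 and 8.80 in CC-CJ and at 8.85 and 9.32 in CC. The 3 RNAs did not overlap, with AA-CJ lowest and CC highest. CC-CJ exceeded AA-CJ by 0.82 and 0.77 on the 2 arrays, 0.79 ± 0.11 (SE) or 1.73-fold, with a limma adjusted p of 0.019; of the 13 tested probes of the 8 genes 1 was called here, against 3.27% of all probes. CC exceeded AA-CJ by 1.12 ± 0.15 or 2.18-fold, with a limma adjusted p of 0.014, again the 1 call among the 13 probes, where 2.66% of all probes were called. CC-CJ was below CC by -0.14 and -0.52, -0.33 ± 0.11, which did not pass (limma adjusted p = 0.203; 0 of the 13 probes were called by limma against 2.38%).

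The other Ntrk2 probe did not show this. Probe A_42_P538400 (rn4 chr17:11495183-11495242, minus strand, 10 spots) stood at 6.60 and 6.91 in AA-CJ, at 6.69, 6.97, 6.75 and 6.83 in CC-CJ and at 6.83 and 6.62 in CC. All 3 RNAs overlapped. Its differences were 0.07 (interval -0.16 to 0.31) in CC-CJ over AA-CJ, 0.06 (-0.17 to 0.30) in CC-CJ over CC and 0.01 (-0.32 to 0.34) in CC over AA-CJ. The interval for CC over AA-CJ ends below that of the first probe, which ran from 0.76 to 1.49. The probes start 259101 bases apart on the minus strand. Both list the same RefSeq transcript, but the other GenBank and Ensembl records listed for them differ. A_44_P161121 lies on the upstream side. Truncated and full-length TrkB transcripts share their upstream exons and end at different places, but which of them each probe reads is not given in the sources used here.

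The gene's call was made on the mean of these 2 unlike probes, of which A_44_P161121 alone was called. Ntrk2 exceeded AA-CJ by 0.45 and 0.41 in CC-CJ, 0.43 ± 0.08 (SE), with a limma adjusted p of 0.043. In CC, which shares the dye of AA-CJ, it exceeded AA-CJ by 0.57 ± 0.11 and did not pass (limma adjusted p = 0.057). It was -0.13 in CC-CJ over CC (limma adjusted p = 0.438). The gene's call ended without CC-CJ versus AA-CJ replicate 1 (0.41, limma adjusted p = 0.176), without CC-CJ versus AA-CJ replicate 2 (0.45, limma adjusted p = 0.111) and with the replicate number as a block (limma adjusted p = 0.102). Over all alternatives run, the gene's limma adjusted p ranged from 0.018 to 0.783 in this comparison. Probe A_44_P161121 in CC-CJ over AA-CJ lost its call without CC-CJ versus AA-CJ replicate 1 (0.77, limma adjusted p = 0.082) and kept it without replicate 2 (limma adjusted p = 0.039). It also lost this call with Feature Extraction's processed signals (1.00, limma adjusted p = 0.106). Its CC over AA-CJ difference lay between 0.94 and 1.31 in all 15 alternatives. That difference was called in 14 of the 15 and not with processed signals (1.27, limma adjusted p = 0.118). With median centring in place of loess the probe's CC-CJ over AA-CJ value turned to -0.019, while the median of all tested probes lay at -0.50, so relative to that median it was 0.48.

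**Figure D2:**
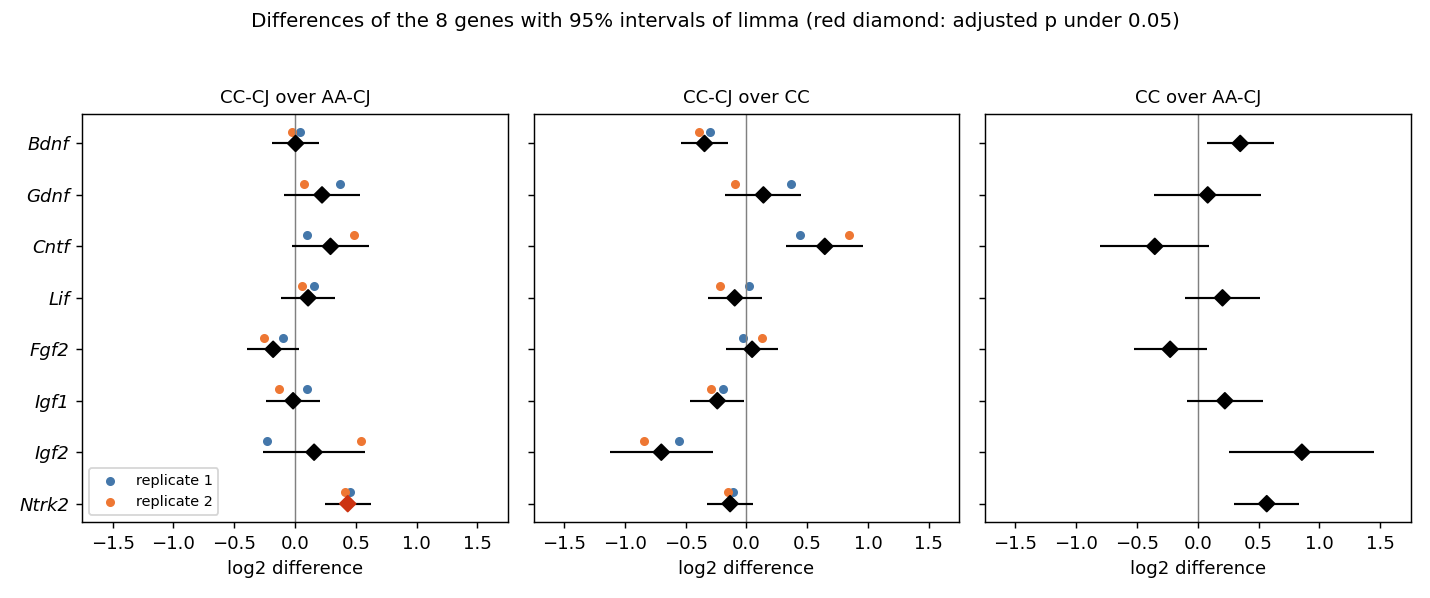
Log2 difference (x axis) of each of the 8 genes (y axis) in the 3 comparisons; diamonds are limma estimates, lines their 95% intervals and small points, in the CC-CJ panels, the 2 arrays. Red marks the 1 call, Ntrk2 in CC-CJ over AA-CJ at 0.43, which turned to -0.035 under median centring; the Igf2 arrays in CC-CJ over AA-CJ are at -0.23 and 0.54.

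Some markers of other cells moved with this comparison too. In CC-CJ versus AA-CJ, where 3.09% of all genes were called, limma called 5 of 14 tested neuron markers higher and none lower. It called 3 of 8 tested microglia markers higher and none lower, and 1 of 12 astrocyte markers higher, the water channel gene Aqp4. Of the 14 neuron markers 10 lay above zero, and Stmn2 (-0.27), Nefl (-0.19), Nefm (-0.07) and Syt1 (-0.04) lay below without a call. Gap43, a growth-associated protein of axons, exceeded AA-CJ 4.08-fold in CC-CJ (limma adjusted p = 0.00033). Dcx, of migrating neurons, and Elavl4, an RNA-binding protein of neurons, were above background on all 4 CC-CJ channels and on 0 AA-CJ channels. The other Elavl4 probe, A_44_P116489, was above background on 0 CC-CJ channels and was not tested. The 3 microglia markers were Tyrobp, which was 1.70-fold higher, and Trem2 and C1qa, which were likewise above background on all 4 CC-CJ channels and on 0 AA-CJ channels. The ranges of the summed neuron marker level overlapped between CC-CJ and AA-CJ. The part of these cells in the Ntrk2 values was not tested.

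The excess of the Ntrk2 probe A_44_P161121 in CC over AA-CJ was in part still read after cold jet. On the linear intensity scale CC was 1.81- and 2.49-fold above AA-CJ when arrays of the same number were joined. Of that excess, 78.7% and 49.5% was still read in CC-CJ, which was in Cy3 while CC and AA-CJ were in Cy5. A dye effect of a probe thus enters all shares given here and cannot be told apart from RNA. Whether arrays of the same number share cultures is not given in the sources used here. The probe was taken because of its call in CC-CJ over AA-CJ, a choice that favours a high share. Of the 14 tested neuron markers, 10 were at least 1.5-fold higher in CC than in AA-CJ, and the share still present had a median of 9.85% and 8.80%, from -5.50% to 54.2% and from -8.43% to 35.8%. With the AA-CJ arrays crossed, an alternative added after seeing the data, the shares were 78.7% and 49.5% for the Ntrk2 probe and the medians 10.1% and 8.58% for the 10 neuron markers. The Ntrk2 probe stood at 8.0 on both AA-CJ arrays, so crossing them could not change its shares. These shares are a description with no test. Igf2 was 1.61-fold higher in CC by its mean level, and its share is not given because it turned with which arrays were joined.

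**Figure D3:**
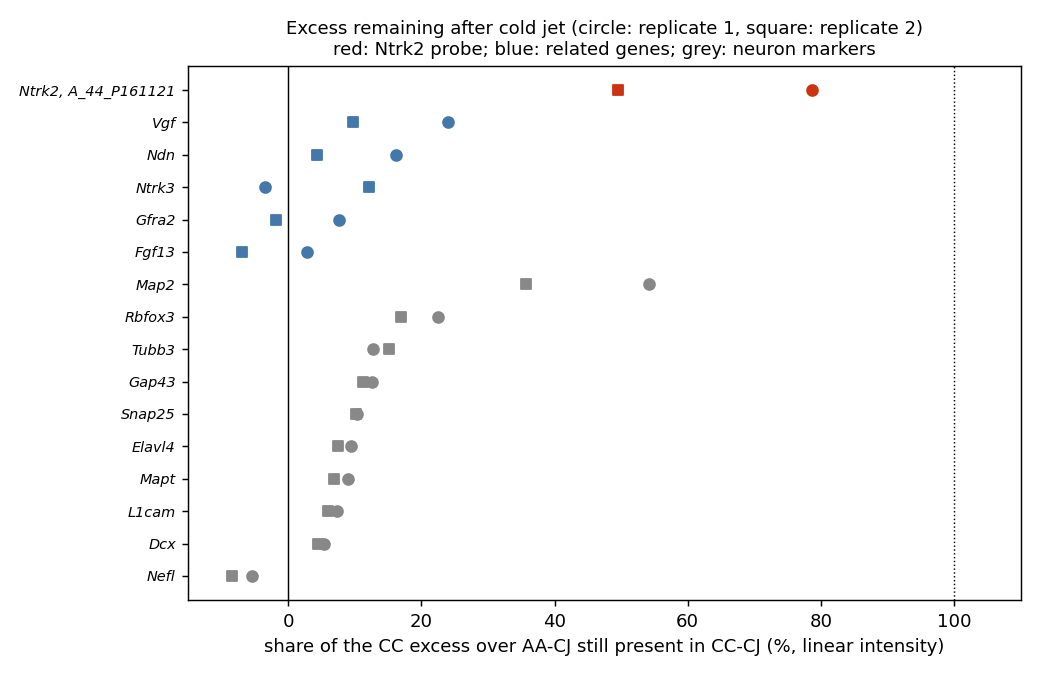
Share of the CC excess over AA-CJ that was still present in CC-CJ (x axis, percent of linear intensity) for the Ntrk2 probe A_44_P161121, for 5 related genes and for 10 neuron markers (y axis); circles are replicate 1 and squares replicate 2, joined by array number for display. The Ntrk2 probe is at 78.7% and 49.5% and was picked because CC-CJ read higher than AA-CJ. The 5 related genes were picked because CC-CJ read lower than CC for them, so their low shares follow from that choice. CC-CJ was in Cy3 and both CC and AA-CJ in Cy5, so a dye effect of a probe enters every share.

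The genes whose 4 log ratios were most like those of Ntrk2, by Euclidean distance among 10193 named genes, were Capza2 (0.065), Fabp7 (0.078) and Crygn (0.097). Fabp7 encodes the brain fatty acid binding protein of radial glia and astrocytes. Its log ratios were 0.43 and 0.40 on the AA-CJ arrays and -0.12 and -0.08 on the CC arrays. Those of Capza2, the nearest, were 0.47 and 0.36, then -0.12 and -0.12. Those of Crygn were 0.48 and 0.39, then -0.03 and -0.12. The measure rests on 4 arrays only and, for Ntrk2, on the mean of 2 unlike probes.

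Ordered by the size of CC-CJ over AA-CJ, the genes ran Ntrk2, Cntf, Gdnf, Igf2, Lif, Bdnf, Igf1 and Fgf2, from 0.43 to -0.18. The 95% intervals of neighbours in this order overlapped throughout. In CC over AA-CJ, the levels of CC lay above those of AA-CJ on both arrays for 5 genes (Bdnf, Lif, Igf1, Igf2 and Ntrk2), as for 24.7% of all genes. They lay below for 2 genes (Cntf and Fgf2), as for 32.3% of all genes. Gdnf overlapped.

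The pathways of these factors were read through 7 lists with 107 further genes, of which 104 had a probe and 80 were tested. In CC-CJ versus AA-CJ, 0 of the 80 were called by limma (3.09% of all genes), and 18 had an unadjusted p under 0.05 (22.6% of all genes), with a median difference of 0.016. In CC-CJ versus CC, 0 were called higher and 5 lower (2.34% of all genes called), and 25 had an unadjusted p under 0.05 (16.9% of all genes). In CC versus AA-CJ, 4 were called higher and 0 lower (2.65%), and 15 had an unadjusted p under 0.05 (17.8%). The 5 genes were the receptors Ntrk3 and Gfra2, the intracellular FGF homologue Fgf13, the necdin gene Ndn and the neuropeptide precursor gene Vgf.

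Among them were 2 receptors. Ntrk3, which encodes TrkC, the receptor of neurotrophin-3, was -0.92 in CC-CJ over CC (limma adjusted p = 0.0036) and 0.91 in CC over AA-CJ (limma adjusted p = 0.017), against -0.01 in CC-CJ over AA-CJ. Gfra2, the neurturin-binding subunit, was -1.10 in CC-CJ over CC (limma adjusted p = 0.00089) and 1.06 in CC over AA-CJ (limma adjusted p = 0.0053), against -0.04 in CC-CJ over AA-CJ. Its probe was above background on 3 of the 4 CC-CJ channels, and the size moved with the background correction: with Feature Extraction's processed signals Gfra2 was -2.42 (limma adjusted p = 0.020) and 2.36 (limma adjusted p = 0.044) in these comparisons, and with offset 10 it was -1.66 (limma adjusted p = 0.0014) and 1.59 (limma adjusted p = 0.0076). Of the 13 receptors of the ligands and their relatives, Ngfr, Ret and Cntfr were not above background on all arrays of any RNA and were not tested. The 9 other tested receptors (Sort1, Gfra1, Lifr, Il6st, Fgfr1, Fgfr2, Fgfr3, Igf1r and Igf2r) lay between -0.28 and 0.06 in CC-CJ over AA-CJ, between -0.23 and 0.06 in CC-CJ over CC and between -0.17 and 0.27 in CC over AA-CJ, and none of them was called.

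The remaining calls were of Fgf13, Vgf and Ndn. Fgf13, which modulates sodium channels and is not secreted, was -1.77 in CC-CJ over CC (limma adjusted p = 0.0003) and 1.70 in CC over AA-CJ (limma adjusted p = 0.0015). Vgf, a gene induced by neurotrophins in neurons, was -1.77 in CC-CJ over CC (limma adjusted p = 0.0067) and 2.50 in CC over AA-CJ (limma adjusted p = 0.0071), and its 0.73 in CC-CJ over AA-CJ did not pass (limma adjusted p = 0.098). Ndn, which encodes a growth-suppressing protein of neurons, was -0.59 in CC-CJ over CC (limma adjusted p = 0.031) and 0.63 in CC over AA-CJ (limma adjusted p = 0.077). Its call ended without CC-CJ versus CC replicate 2 (-0.45, limma adjusted p = 0.385) and with the replicate number as a block (limma adjusted p = 0.062). All 5 genes kept their direction in CC-CJ over CC and in CC over AA-CJ under every alternative run, median centring included. These genes moved with the neuron markers. Of these markers, 9 of 14 tested were called lower by limma in CC-CJ against CC, where 2.34% of all genes were called. In CC versus AA-CJ, 8 of 14 were called higher, where 2.65% of all genes were called. The part of the neurons in the values of the 5 genes was not tested.

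**Figure D4:**
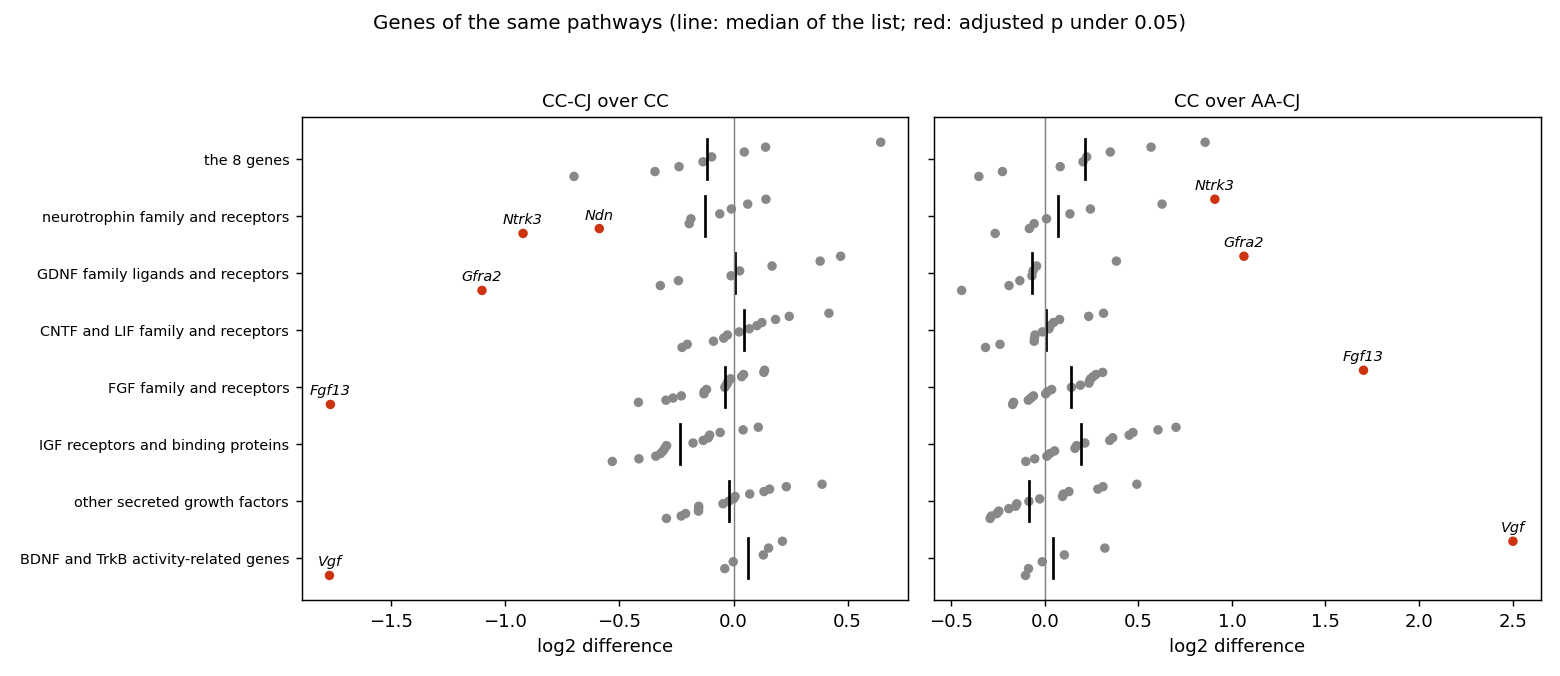
Log2 difference (x axis) of every tested gene of the 8 genes and the 7 related lists (y axis), in CC-CJ over CC on the left and CC over AA-CJ on the right; each point is a gene, the line the median of its list and red a limma call. The called genes, Ntrk3, Ndn, Gfra2, Fgf13 and Vgf, lie between -1.77 and -0.59 on the left, far from the medians of their lists.

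The CNTF and LIF list (12 genes tested), the IGF list (14) and the list of other secreted growth factors (15) held 0 genes called by limma in any comparison. At an unadjusted p under 0.05 the CNTF and LIF list had 3, 3 and 1 genes in CC-CJ versus AA-CJ, CC-CJ versus CC and CC versus AA-CJ, the IGF list 2, 6 and 6, and the list of other growth factors 5, 3 and 2. In the IGF list, 12 of the 14 genes were above zero in CC over AA-CJ, with a median of 0.19, and 2 of the 14 in CC-CJ over CC, with a median of -0.24. Of all 21315 genes, 10709 and 9331 were above zero in these comparisons, and whether the list differs from them was not tested. Igf2bp2 and Igf2bp3 encode proteins that bind Igf2 mRNA. Igf2bp2 was 0.70 in CC over AA-CJ and did not pass (limma adjusted p = 0.073). Igf2bp3 was not above background on any AA-CJ array, and its probe A_44_P391156 entered the tests only through CC. Against the AA-CJ level or the detection floor, whichever was larger, its mean CC level was 1.86-fold higher on one probe and 1.44-fold on the other. These 2 values carry no interval. The fitted difference of Igf2bp3 in CC over AA-CJ was 0.60, with an interval of 0.31 to 0.90. It did not pass as reported (limma adjusted p = 0.062) but did in 6 of 15 alternatives, its difference running from 0.51 to 2.63.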

How the data were processed

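RNA was measured on 4 two-colour Agilent whole rat genome arrays on 1 slide with 1 scan time, 2 arrays per comparison. The authors deposited Feature Extraction 9.5.1.1 scanner files, holding Cy3 and Cy5 intensity per spot with background and flags (other values), and a table of log2 ratios; its direction was unstated, and it followed Cy5 over Cy3 here (correlation 0.900 to 0.952). Probe coordinates are of rn4; exons and UTRs were not used here. With limma 3.58.1 in R 4.3.3, signals were background-corrected (normexp, offset 50) and loess-normalized (span 0.3), controls and outlier spots were left out, and spots were averaged per probe. A probe entered the tests if well above background in at least 50% of its spots on every array of at least 1 RNA (24865 probes, 21315 genes); genes are means of their probes. Differences are log2 ratios on the normexp scale, which understates those of dim probes. Levels are log2 per channel after loess and Aquantile scaling, and levels of different probes are not comparable. The fit took all 4 arrays (2 residual degrees of freedom, prior 4.72). Fits were tested on simulated data with independent noise and a change larger than that of Ntrk2. This does not cover calls of the size reported here or CC-CJ RNA that arrays may share. Intervals cover 95%. The number of arrays limits the precision.

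Arrays of the same replicate number were not treated as pairs: their deviations correlated at -0.11 over 21310 genes. The Cy3 levels of CC-CJ deviated together at 0.45 over 24857 probes, and which CC-CJ RNA lies on which array is not given in the sources used here. RNA came from pools of animals and wells. Group labels were those of the submitters.

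The 8 genes and all lists were chosen with earlier results of these data known. Named are the 8 genes and all their probes, called genes of the 7 lists (up to 5 per list and comparison), 13 receptors, and the 3 genes most like each called member. Another gene of the set and a receptor are not reported here. Alternatives covered background, normalization, source table, filters, gene summary, variance prior, single arrays and the replicate block.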

Additional observations from a re-analysis of the deposited data

How the results depend on the processing

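The 2 arrays per comparison and the brightness of a probe over background limit every value here, and Bdnf, Lif and part of the Igf1 probes lie near background. The counts of genes called by limma, in CC-CJ versus AA-CJ, CC-CJ versus CC and CC versus AA-CJ in that order, moved with the processing: 658, 499 and 564 as reported; 76, 274 and 248 with Feature Extraction's processed signals; 291, 426 and 432 with offset 10; 13198, 14303 and 779 with median centring; 1048, 550 and 634 with regression on intensity and location; 680, 287 and 348 with probes above background in all channels; 61, 333 and 420 with a robust prior; and 1102 and 676 with the 2 arrays of a comparison alone. Leaving out single arrays gave 105 to 1102, 203 to 676 and 346 to 641. With the replicate number as a block they were 163, 306 and 289, with 0, 1 and 0 of the 8 genes called, and the block changed no other call of the named genes than those given for Ntrk2, Cntf and Ndn. With crossed numbers, an alternative added after seeing the data, they were 1502, 852 and 847, with 1, 2 and 2 of the 8 called.

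Of the 8 genes, 1, 0 and 0 were called as reported. In CC-CJ versus AA-CJ the count was 0 with processed signals, with offset 10 and with the robust prior, 5 with median centring, and 0 to 1 without single arrays. In CC-CJ versus CC it was 7 with median centring, 1 with regression on location and 1 with the value table of the series, 2 with the 2 arrays alone, 2 by the 2 SD limit, and 0 to 2 without single arrays. In CC versus AA-CJ it was 1 with the brightest probe of each gene and 0 to 1 without single arrays. Ntrk2 in CC-CJ versus AA-CJ was called in 10 of 17 alternatives and probe A_44_P161121 in 12 of 16. Cntf in CC-CJ versus CC was called in 9 of 17, 8 in the reported direction and 1, median centring, in the opposite one. Leaving out either array of the other comparison gives the same fit as the 2 arrays of a comparison alone. These counts therefore hold repeats and overstate the number of distinct settings. With processed signals the calls of Ntrk3, Ndn and Vgf ended as well (limma adjusted p = 0.0855, 0.197 and 0.0966 in CC-CJ versus CC), as did those of Ntrk3 (0.174) and Vgf (0.0856) in CC versus AA-CJ. With offset 10 those of Ndn in the former (0.0884) and Ntrk3 in the latter (0.0553) ended.

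Median centring, which leaves the dye bias that grows with brightness, put the median of the tested probes at -0.42 to -0.66 per array. Relative to zero it reversed, in CC-CJ versus AA-CJ, Gdnf (-1.44), Cntf (-1.02), Igf2 (-1.67), Ntrk2 (-0.035) and its probes A_44_P161121 (-0.019) and A_42_P538400 (-0.052); in CC-CJ versus CC, Gdnf (-1.29), Cntf (-0.58), Fgf2 (-0.45) and probe A_42_P538400 (-0.081); and in CC versus AA-CJ, Gdnf (-0.15). Without reversing them it moved Igf2 (-2.24), Ntrk3 (-2.03), Fgf13 (-2.85), Ndn (-1.71) and Vgf (-2.90) in CC-CJ versus CC. The other reversals were of values near zero. Bdnf in CC-CJ versus AA-CJ was -0.10 with processed signals, -0.0012 with offset 10, -0.0010 with regression on location and -0.014 with the value table. Igf1 there was 0.0063 with regression on location, 0.017 with the value table and 0.011 without a filter. Lif in CC-CJ versus CC was 0.0036 with the value table, and Fgf2 there -0.016 with the brightest probe. Probe A_42_P538400 in CC versus AA-CJ was -0.0079 with regression on location and -0.017 with the value table. The cause of these was not tested. Without single arrays, CC-CJ versus AA-CJ ran from -0.027 to 0.038 for Bdnf, -0.13 to 0.10 for Igf1 and -0.23 to 0.54 for Igf2; CC-CJ versus CC from -0.090 to 0.37 for Gdnf, -0.21 to 0.022 for Lif, -0.031 to 0.13 for Fgf2 and -0.082 to 0.21 for probe A_42_P538400; and CC versus AA-CJ from -0.15 to 0.31 for Gdnf and -0.14 to 0.16 for probe A_42_P538400.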
